A study of Mus musculus with 21 samples.

Results

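Fkbp5, Tsc22d3, Sgk1, Zbtb16, Mt1, Mt2, Pdk4, Angptl4, Plin4 and Sult1a1 are mouse genes known to respond to glucocorticoid hormone, to fasting or to both. They were chosen by name, with earlier results of these data known, as a measure of end-stage stress in paralyzed tau mice. Each symbol was matched to its Ensembl identifier in the count and FPKM tables, which gave 10 of the 55401 genes of the count table. Every member passed the filter on low counts in all 13 comparisons that were fitted.

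The study asked how human APOE genotype modifies disease in mice that express a mutant human tau, and RNA with poly(A) tails was sequenced from the forebrains of 21 mice in 6 groups. E2H, E3H and E4H are the parental lines, homozygous for humanized APOE2, APOE3 or APOE4 in place of mouse Apoe, with 3 mice each at 9 to 10 months of age. PS/E2H, PS/E3H and PS/E4H carry the P301S human tau transgene of the PS19 line, kept as a heterozygote on a B6/C3H background, on the same APOE genotypes. The parental lines were kept on C57BL6, and the PS19 mice came from a cross to an APOE line and a backcross to it, so C3H sequence can remain in PS19 groups. Each PS19 group held 4 mice, killed when both hindlimbs were paralyzed, at ages not given mouse by mouse. The females were 1 of 3 mice in E4H, 1 of 4 in PS/E2H and 2 of 4 in PS/E4H, and the other groups were male. The transgene is driven by the mouse prion protein promoter, which is active in neurons across the brain and spinal cord, so tau expression was not limited to the tissue that was sequenced. Tau genotype, genetic background and paralysis differ together between a PS19 group and its parental line and cannot be told apart. The study calls E2H and E3H mice age-matched. In its survival cohorts, however, the median age at paralysis was above 10 months in all 3 PS19 groups and latest in PS/E3H. Without ages by mouse a difference in age is not excluded, and sex was unbalanced in the E2 and E4 lines.

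Glucocorticoids are steroid hormones of the adrenal cortex that are released under stress, pass into the brain and bind the mineralocorticoid receptor (Nr3c2) and the glucocorticoid receptor (Nr3c1), which then act on genes through DNA elements built from the letters AGAACA. In fasting, glucocorticoids and fatty acids, the latter through PPAR receptors, shift tissues from glucose to fat as fuel, and genes such as Pdk4 and Angptl4 are switched on in liver, muscle and fat. Metallothionein genes answer to glucocorticoids, to zinc and to inflammation, and in the brain they are found mostly in astrocytes.

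Total counts ran from 59265459 to 75932183 per mouse, with a median of 63751715. By group they were 61093230 to 75533642 in E2H, 60394625 to 75932183 in E3H, 66983058 to 74756427 in E4H, 59265459 to 70384215 in PS/E2H, 61065315 to 72693566 in PS/E3H and 60883889 to 63751715 in PS/E4H. At this depth the member with the fewest counts, Angptl4, had 109 to 526 counts per mouse. Levels are given as CPM, counts scaled to a common library size with TMM factors, and differences as log2 fold change ± standard error (SE).

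The label of the tau genotype was checked with Prnp, the gene whose promoter drives the transgene. Prnp stood at 957.4 ± 89.9 CPM in E2H, 894.5 ± 40.8 in E3H and 849.6 ± 45.4 in E4H (SD, n = 3 each) and at 1802 ± 87.0, 1523 ± 163 and 1725 ± 196 in PS/E2H, PS/E3H and PS/E4H (SD, n = 4 each). All 12 PS19 mice were above all 9 parental mice, with a log2 fold change over the 3 lines of 0.90 ± 0.06 (adjusted p = 4.25e-10 by the quasi-likelihood F test of edgeR (Benjamini-Hochberg), 12 of 12 mice above all parental mice of their line). Mouse Mapt, the gene of endogenous tau, gave -0.06 ± 0.04 in the same fit (adjusted p = 0.352, 7 of 12 mice under all parental mice of their line); from here on such counts are of PS19 mice beyond all parental mice of their line in the direction of the change. The tissue was checked with 6 forebrain markers, whose summed group means ran from 554.5 to 606.2 CPM with Ppp1r1b the most abundant, and 6 hindbrain markers, at 1.39 to 2.99 CPM with En2 the most abundant. Of the hindbrain markers, Hoxa5, Hoxb5 or Hoxc8 were at 0 in every mouse of some groups, and no forebrain marker was.

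A pair of PS19 mice stood apart from the others of their groups over the 10 members. PS/E2H 4 had the highest CPM of all 21 mice for 9 members, all but Zbtb16, and its mean log2 CPM over the members was 2.11 above the mean of all 9 parental mice. PS/E3H 2 was at 0.385 on the same scale, while the other PS19 mice lay between 0.982 and 1.48. In PS/E3H 2 the glucocorticoid genes Fkbp5, Tsc22d3, Sgk1 and Zbtb16 averaged -0.218 on that scale. The metallothioneins averaged 0.778, and Pdk4, Angptl4, Plin4 and Sult1a1, here called the fasting genes, averaged 0.792. These differed among themselves: over the E3H mean, PS/E3H 2 was at -0.007 for Pdk4, 1.079 for Angptl4, 2.158 for Plin4 and 0.669 for Sult1a1. Member results that rest most on these mice are given with and without them, a choice made after their values were seen; the other gene lists were fitted only with all mice. PS/E3H 2 and PS/E2H 4 also had the highest hindbrain marker sums of the 21 mice, 6.477 and 5.508 CPM against at most 3.464 in the others, and PS/E3H 2 had a forebrain sum of 476.8 CPM, with only PS/E4H 1 lower (422.6).

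**Figure D1:**
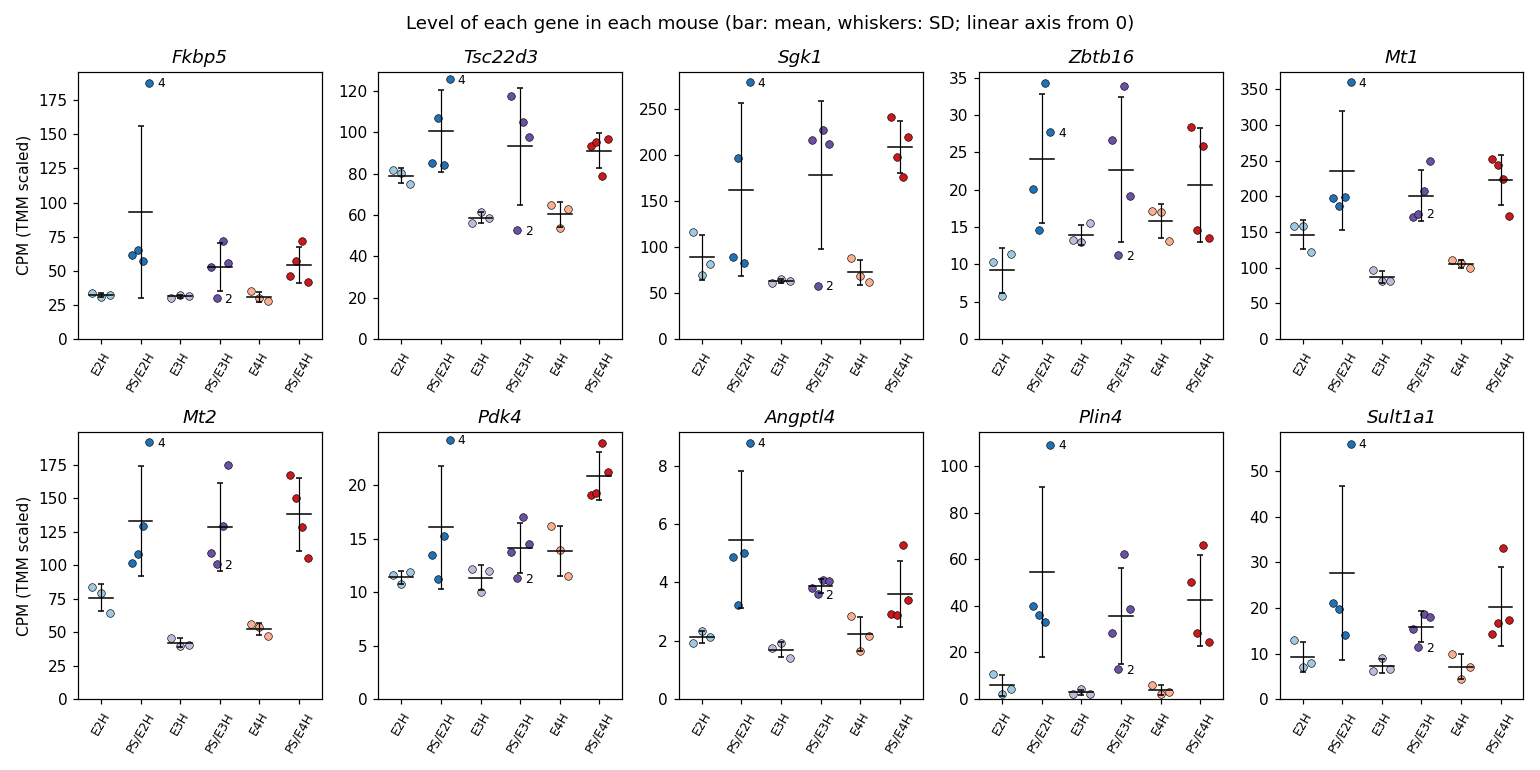
CPM of each member (10 panels, each with its own axis from 0) in every mouse of the 6 groups, with bars at the group mean and whiskers of 1 SD; PS/E2H 4 and PS/E3H 2 are numbered. For Mt1, Mt2, Angptl4 and Plin4 all 12 PS19 points lie above all 9 parental points, and PS/E2H 4 is the highest point for every member but Zbtb16.

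Transcripts of all 10 members were more abundant in paralyzed PS19 mice than in parental mice on the average of each APOE line. With the 3 lines fitted together, the log2 fold change ran from 0.47 ± 0.11 for Pdk4 to 3.44 ± 0.35 for Plin4. All 10 members passed an adjusted p under 0.05 by the quasi-likelihood F test of edgeR (Benjamini-Hochberg) over all genes tested, and 6 of them, Fkbp5, Sgk1, Mt2, Angptl4, Plin4 and Sult1a1, also rose at least 2-fold. Of the 22863 genes tested in that fit, 11.4% were higher at this adjusted p, 9.63% were lower, and 2.24% were higher by at least 2-fold. The median log2 fold change was 1.06 over the members and -0.01 over all genes. Since the members were chosen with earlier results of these data known, these counts describe them and do not test them as a set. Without PS/E2H 4 the members that rose at least 2-fold numbered 4, since Fkbp5 came to 0.83 and Angptl4 to 0.97, and all 10 still passed the adjusted p. Without both PS/E2H 4 and PS/E3H 2 the same counts were 4 and 10, and the log2 fold changes ran from 0.42 for Pdk4 to 3.34 for Plin4.

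Within single lines the count of members past the test differed. In PS/E2H against E2H, 1 member passed the adjusted p, Plin4, which also rose at least 2-fold, where 0.669% of 20617 genes were higher, 0.0825% lower and 0.451% higher by at least 2-fold. In PS/E3H against E3H, 6 members passed at both limits, namely Sgk1, Mt1, Mt2, Angptl4, Plin4 and Sult1a1, where 3.35% of 21251 genes were higher, 2.02% lower and 1.2% higher by at least 2-fold. In PS/E4H against E4H, 8 members passed, all but Zbtb16 and Angptl4, and 5 of them rose at least 2-fold, where 8.62% of 20844 genes were higher, 6.98% lower and 2.4% higher by at least 2-fold. At an unadjusted p under 0.05 the members numbered 8, 9 and 9 in the E2, E3 and E4 lines. The share of all genes at that limit was not counted, so these numbers have no baseline. The members' median log2 fold changes were 1.11, 1.15 and 0.95, beside -0.02, 0.00 and 0.00 over all genes. Without PS/E2H 4 the E2 line median was 0.75, and without PS/E3H 2 the E3 line median was 1.23. The counts moved when single mice were left out or the model was changed. In the E2 line the count at the adjusted p was 0 without any of E2H 1, E2H 2, E2H 3, PS/E2H 1 or PS/E2H 3, and 2 without PS/E2H 2 or PS/E2H 4. In the E3 line it was 3 without E3H 1, 9 without PS/E3H 2 and 4 with the replicate number as a block, where Sgk1 and Sult1a1 lost their calls, and in the E4 line 5 without E4H 2.

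**Figure D2:**
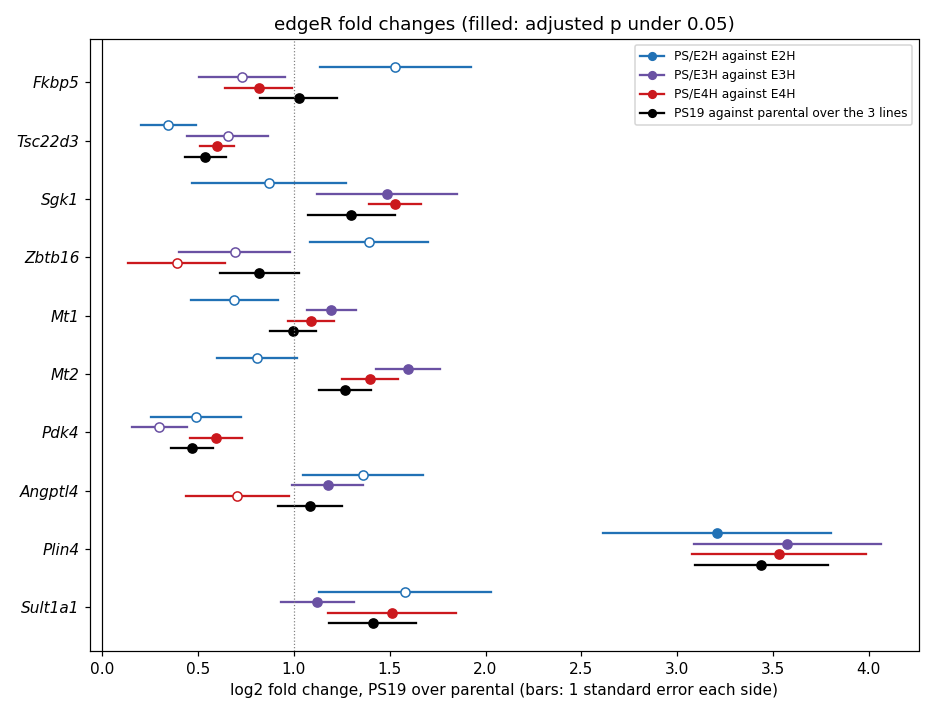
Log2 fold change of each member (vertical axis) in PS19 against parental mice, as points with bars of 1 SE for each APOE line and for the 3 lines fitted together; filled points passed an adjusted p under 0.05 and the dotted line marks 2-fold. Every point lies above 0, from 0.30 for Pdk4 in the E3 line to 3.57 for Plin4 in the E3 line.

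Whether the effect of PS19 differed between lines was tested by interaction terms, and for all 3 pairs of lines 0 of 10 members passed the adjusted p by the quasi-likelihood F test of edgeR (Benjamini-Hochberg). The share of all genes that passed was 0.0% of 22212 for E4 minus E3, 0.0% of 22133 for E2 minus E3 and 0.0% of 22031 for E4 minus E2, and no other tool was run on these terms. At an unadjusted p under 0.05, where the share of all genes was not counted, the members numbered 0, 1 and 2. These were Mt2 for E2 minus E3 (-0.78 ± 0.29, adjusted p = 0.847), and Zbtb16 (-1.01 ± 0.44, adjusted p = 0.464) and Mt2 (0.59 ± 0.28, adjusted p = 0.494) for E4 minus E2. A member that passed in 1 line and not in another is therefore not shown to differ between them. For Plin4 the difference between the E4 and E3 lines was -0.05 on the log2 scale, and 2 SE either side of it ran from -1.42 to 1.32.

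The overlap of single-mouse values between PS19 and parental mice differed by member and line. All 4 PS19 mice were above all 3 parental mice of their line for 8 members in the E2 line, 5 in the E3 line and 9 in the E4 line, where 6.47%, 10.9% and 14.2% of the genes tested did so. Mt1, Mt2, Angptl4 and Plin4 were higher in all 12 PS19 mice than in all 9 parental mice, as were 1.4% of the 22863 genes tested over the lines. The lowest PS19 mouse was PS/E3H 2 for Fkbp5, Tsc22d3, Sgk1, Zbtb16, Mt2, Plin4 and Sult1a1.

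**Figure D3:**
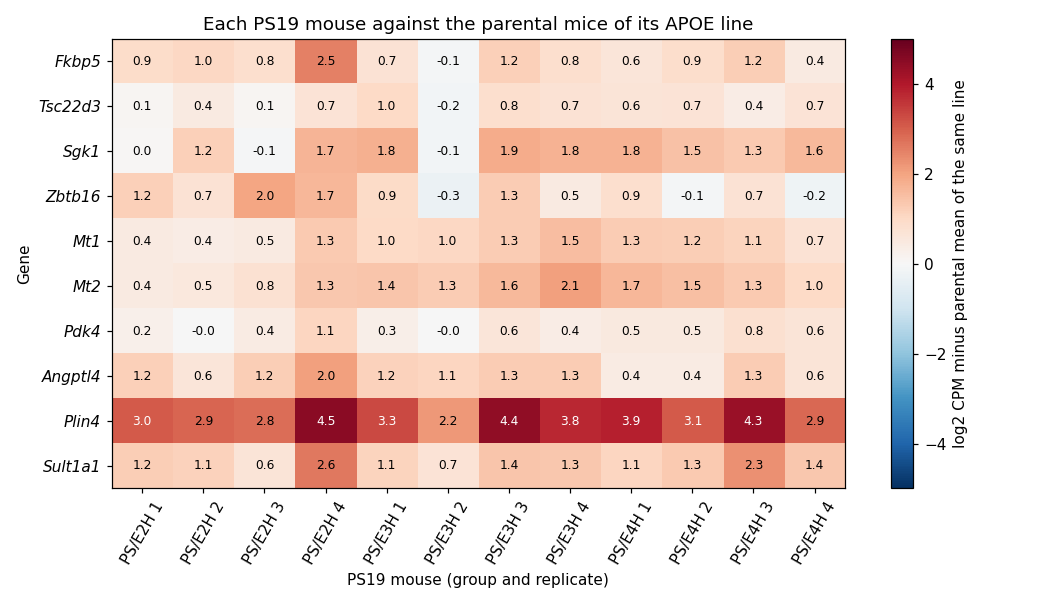
Log2 CPM of each member (rows) in each PS19 mouse (columns) minus the mean of the parental mice of the same APOE line, as a colour scale. The highest cell is Plin4 in PS/E2H 4 (4.501), and the cells of PS/E3H 2 for Fkbp5, Tsc22d3, Sgk1 and Zbtb16 lie under 0 (-0.079, -0.154, -0.118 and -0.301). The other cells under 0 are Zbtb16 in PS/E4H 4 (-0.209) and PS/E4H 2 (-0.102), Sgk1 in PS/E2H 3 (-0.071), and Pdk4 in PS/E2H 2 (-0.019) and PS/E3H 2 (-0.007).

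Compared per transcript length as FPKM, the members covered a wide range of levels. The medians over the 9 parental mice were 85.2 FPKM for Mt2, 78.7 for Mt1, 13.8 for Tsc22d3, 12.9 for Sgk1, 4.26 for Sult1a1, 3.11 for Fkbp5, 3.09 for Pdk4, 2.33 for Zbtb16, 0.526 for Angptl4 and 0.417 for Plin4. Each neighbouring pair in this order had parental values that overlapped, except Mt1 and Tsc22d3, Sgk1 and Sult1a1, and Zbtb16 and Angptl4. Over the 12 PS19 mice the medians were 201.0 FPKM for Mt2, 154.3 for Mt1, 38.0 for Sgk1, 20.3 for Tsc22d3, 10.9 for Sult1a1, 5.55 for Fkbp5, 5.38 for Plin4, 4.35 for Pdk4, 3.93 for Zbtb16 and 1.001 for Angptl4. By these medians, Plin4 moved from the lowest level among the members in parental mice to a level beside Fkbp5 in PS19 mice. In E2H, however, the mean was lower for Angptl4 (0.534 FPKM) than for Plin4 (0.841 FPKM). The Sgk1 median came to stand above that of Tsc22d3, as did Sgk1 in 9 of the 12 mice, all but PS/E2H 1, PS/E2H 3 and PS/E3H 2. Among the parental mice Sgk1 was already above Tsc22d3 in E2H 1, E4H 1 and E4H 2, and under it in the others.

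Fkbp5 (ENSMUSG00000024222, GRCm38 chr17:28399094-28517527, minus strand) encodes a co-chaperone that lowers the hormone affinity of the glucocorticoid receptor and is itself induced by it. It overlaps 4 annotated genes on both strands, and since it is not given whether the counting used strand, reads of overlapping genes cannot be told apart. Fkbp5 in parental mice was at 33.6, 31.0 and 32.3 in E2H, 30.1, 32.2 and 31.6 in E3H and 35.1, 29.7 and 27.7 in E4H (CPM). The PS19 mice had 61.9, 65.4, 57.4 and 188 in PS/E2H, 52.4, 29.6, 72.1 and 55.9 in PS/E3H and 46.2, 56.8, 72.0 and 41.6 in PS/E4H (CPM). The parental mice lay close together in all 3 lines, and every PS19 mouse except PS/E3H 2 was above all of them. PS/E2H 4 was far above the rest. Group means were 32.3 ± 1.30, 31.3 ± 1.09 and 30.9 ± 3.83 CPM in E2H, E3H and E4H (SD, n = 3 each) and 93.1 ± 63.2, 52.5 ± 17.5 and 54.2 ± 13.5 in PS/E2H, PS/E3H and PS/E4H (SD, n = 4 each).

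By the quasi-likelihood F test of edgeR (Benjamini-Hochberg), Fkbp5 rose in the E4 line with a log2 fold change of 0.82 ± 0.18 (adjusted p = 0.0129, 4 of 4 PS19 mice above all parental mice of the line). The call was lost without E4H 2 (0.80, adjusted p = 0.0659) or E4H 3 (0.75, adjusted p = 0.0501) and with all 21 mice in 1 model (0.82, adjusted p = 0.113), and the adjusted p over all alternatives ran from 1.21e-05 to 0.113. The E2 line gave 1.53 ± 0.39 (adjusted p = 0.137, 4 of 4 mice). Leaving out PS/E2H 4 lowered that difference to 0.93 and brought the gene past the test (adjusted p = 0.00914, range over alternatives 0.0058 to 0.394). The E3 line gave 0.73 ± 0.23 (adjusted p = 0.0907, 3 of 4 mice), and 0.93, adjusted p = 0.00618 without PS/E3H 2 (range over alternatives 0.00618 to 0.269). Over the 3 lines Fkbp5 rose 2.04-fold (1.03 ± 0.20, adjusted p = 0.000694, 11 of 12 mice), and without both PS/E2H 4 and PS/E3H 2 the value was 0.89, adjusted p = 3.45e-07.

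Tsc22d3 (ENSMUSG00000031431, chrX:140539528-140600659, minus strand) encodes GILZ, a leucine zipper protein through which glucocorticoids restrain inflammatory signalling. Tsc22d3 in parental mice was at 81.6, 80.5 and 75.1 in E2H, 55.9, 61.2 and 58.7 in E3H and 64.8, 53.5 and 62.7 in E4H (CPM). PS19 values were 84.9, 107, 84.3 and 126 in PS/E2H, 117, 52.6, 105 and 97.7 in PS/E3H and 93.2, 95.4, 78.7 and 97.0 in PS/E4H (CPM). The E2H mice were above all E3H and E4H mice, and 2 of the 4 PS/E2H mice lay only slightly above them. PS/E3H 2 was the lowest of all 21 mice, while the other 3 PS/E3H mice were all higher than E3H. Tsc22d3 rose in the E4 line by the quasi-likelihood F test of edgeR (Benjamini-Hochberg) (0.60 ± 0.09, adjusted p = 0.00247, 4 of 4 mice). It did not pass in the E2 line (0.35 ± 0.14, adjusted p = 0.422, 4 of 4 mice; 0.22, adjusted p = 0.654 without PS/E2H 4) or the E3 line (0.65 ± 0.21, adjusted p = 0.106, 3 of 4 mice). Without PS/E3H 2 the E3 line passed (0.85, adjusted p = 0.00284, range over alternatives 0.00284 to 0.313). Fitted over the 3 lines, Tsc22d3 rose 1.45-fold (0.54 ± 0.11, adjusted p = 0.000743, 11 of 12 mice above all parental mice of their line).

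Sgk1 (ENSMUSG00000019970, chr10:21882184-21999903, plus strand) encodes a kinase that regulates ion channels and transporters and is induced through both corticosteroid receptors. Because Sgk1 was among the members that rose most in the E3 and E4 lines, a stretch upstream of an Sgk1 start site is shown. RefSeq windows of GRCm38.p6, from 250 bases before to 50 after a start site, were given for 8 of the 10 members, in 15 windows, 6 of them for Sgk1 and 3 for Tsc22d3; Zbtb16 and Angptl4 have no entry. Both strands were searched for AGAACA, the single site (19.0% of all 32851 windows), and for the full element, AGAACA followed after any 3 bases by TGTTCT, which contains 2 single sites (3 windows, 0.00913%). Capitals mark AGAACA, its reverse complement TGTTCT or the full element in the window at chr10:21993640-21993939, plus strand.
Sgk1 window 5: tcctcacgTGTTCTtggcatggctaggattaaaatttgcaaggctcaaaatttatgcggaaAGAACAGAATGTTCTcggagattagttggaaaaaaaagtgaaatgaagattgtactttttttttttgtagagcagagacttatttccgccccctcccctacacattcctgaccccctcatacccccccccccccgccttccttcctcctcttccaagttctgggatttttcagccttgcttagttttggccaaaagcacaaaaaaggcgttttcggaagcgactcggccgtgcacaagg
The full element starts at base 62 of this window, and a further single site starts at base 9. Single sites also lie in Sgk1 windows 1 and 4, in window 3 of Tsc22d3 and at 2 places in the Sult1a1 window, and none lies in the windows of Fkbp5, Pdk4, Plin4, Mt1 or Mt2. TGACGTCA, the cyclic AMP response element (1.79% of windows), was in no member's window. A match describes letters in a window and does not show binding or a cause, and a window without one covers only these bases.

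Sgk1 in parental mice was at 116, 69.1 and 81.4 in E2H, 61.0, 64.9 and 62.8 in E3H and 87.6, 68.2 and 61.5 in E4H (CPM). Among PS19 mice the values were 89.2, 197, 82.6 and 279 in PS/E2H, 216, 57.9, 227 and 212 in PS/E3H and 242, 197, 176 and 219.6 in PS/E4H (CPM). The PS/E4H mice were all above every parental mouse of any line. In PS/E3H, 3 mice were near each other and PS/E3H 2 was under the E3H mice, and PS/E2H was divided, with mice 2 and 4 high and mice 1 and 3 among the E2H values. By the quasi-likelihood F test of edgeR (Benjamini-Hochberg), Sgk1 rose 2.89-fold in the E4 line (1.53 ± 0.14, adjusted p = 0.000156, 4 of 4 mice) and 2.80-fold in the E3 line (1.49 ± 0.37, adjusted p = 0.0432, 3 of 4 mice). It gave 0.87 ± 0.40 in the E2 line (adjusted p = 0.485, 2 of 4 mice), or 0.47, adjusted p = 0.759 without PS/E2H 4, and rose 2.46-fold over the 3 lines (1.30 ± 0.23, adjusted p = 0.000235, 9 of 12 mice).

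The Sgk1 call in the E3 line depended on which mice and settings were used, with an adjusted p of 6.16e-06 to 0.169 over the alternatives by the quasi-likelihood F test of edgeR (Benjamini-Hochberg) or the other tools. It was lost without E3H 1 (1.47, adjusted p = 0.169), E3H 2 (1.51, adjusted p = 0.134), E3H 3 (1.48, adjusted p = 0.144), PS/E3H 3 (1.35, adjusted p = 0.0862) or PS/E3H 4 (1.40, adjusted p = 0.107). Blocking on the replicate number, which was taken from the data alone to pair the E3 mice, gave 1.19, adjusted p = 0.146. The Xist level as a covariate gave an adjusted p of 0.14, but all mice of the E3 line were male, so it does not adjust for sex there. Without a filter on low counts the adjusted p was 0.0854, and limma on log2(FPKM + 0.1) and log2(FPKM + 1) gave 0.12 and 0.13. Without PS/E3H 2, Sgk1 reached 1.78, adjusted p = 6.16e-06.

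Zbtb16 (ENSMUSG00000066687, chr9:48654297-48836222, minus strand) encodes PLZF, a zinc finger transcription factor that is strongly induced by glucocorticoids in many tissues. Zbtb16 in parental mice was at 10.3, 5.75 and 11.4 in E2H, 13.3, 12.96 and 15.5 in E3H and 17.1, 17.04 and 13.2 in E4H (CPM). In PS19 mice it was at 20.1, 14.5, 34.4 and 27.7 in PS/E2H, 26.6, 11.2, 33.8 and 19.1 in PS/E3H and 28.4, 14.6, 25.9 and 13.5 in PS/E4H (CPM). All PS/E2H mice were above all E2H mice, PS/E3H 2 was under all E3H mice, and PS/E4H 2 and 4 lay among the E4H mice. Zbtb16 passed in no single line by the quasi-likelihood F test of edgeR (Benjamini-Hochberg): the E2 line gave 1.39 ± 0.31 (adjusted p = 0.09, 4 of 4 mice), the E3 line 0.69 ± 0.29 (adjusted p = 0.199, 3 of 4) and the E4 line 0.39 ± 0.25 (adjusted p = 0.345, 2 of 4). It passed in the E2 line without PS/E2H 2 and under some other settings (1.57, adjusted p = 0.0447 without that mouse, 1.32, adjusted p = 0.171 without PS/E2H 4, range over alternatives 0.0112 to 0.216) and in the E3 line without PS/E3H 2 (0.92, adjusted p = 0.032, range 0.032 to 0.424). With single mice left out, the log2 fold change ran from 0.43 to 0.92 in the E3 line and from 0.2 to 0.55 in the E4 line. All lines together gave a rise of 1.77-fold (0.82 ± 0.21, adjusted p = 0.00636, 9 of 12 mice above all parental mice of their line).

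Mt1 (ENSMUSG00000031765, chr8:94179082-94180327, plus strand) and Mt2 (ENSMUSG00000031762, chr8:94172664-94173568, plus strand) encode small zinc-binding proteins and lie next to each other on chromosome 8 and share 0 of their 50-base exon windows with other genes, although Mt2 overlaps Gm45774 on the other strand. Metals act on them through metal response elements with the core TGCACNC (12.6% of all windows) or TGCGCNC (15.4%), and these cores were searched on both strands in the RefSeq windows of GRCm38.p6 at chr8:94178839-94179138 for Mt1 and chr8:94172368-94172667 for Mt2, both plus strand. The sequences are shown because these neighbours rose together in the E3 and E4 lines; capitals mark the cores.
Mt1: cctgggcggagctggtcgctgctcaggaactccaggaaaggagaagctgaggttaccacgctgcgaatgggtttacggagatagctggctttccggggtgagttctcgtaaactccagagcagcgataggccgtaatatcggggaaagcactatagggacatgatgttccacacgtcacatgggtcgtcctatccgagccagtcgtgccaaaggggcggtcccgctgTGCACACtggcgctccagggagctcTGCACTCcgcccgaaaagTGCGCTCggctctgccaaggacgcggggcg
Mt2: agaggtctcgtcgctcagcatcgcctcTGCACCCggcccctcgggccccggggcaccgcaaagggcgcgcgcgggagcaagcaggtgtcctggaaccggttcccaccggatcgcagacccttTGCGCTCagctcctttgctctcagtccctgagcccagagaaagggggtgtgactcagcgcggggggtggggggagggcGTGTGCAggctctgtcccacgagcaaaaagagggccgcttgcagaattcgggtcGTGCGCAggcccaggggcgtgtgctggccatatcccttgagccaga
Mt1 holds TGCACNC at bases 228 and 253 and TGCGCNC at base 271. Mt2 holds TGCACNC at bases 28 and 201 and TGCGCNC at bases 123 and 255, with the matches at 201 and 255 on the minus strand. The only other member window with a core was Sgk1 window 6, with TGCGCNC at base 262 on the minus strand.

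Mt1 in parental mice was at 158, 158 and 122 in E2H, 97.1, 81.5 and 81.5 in E3H and 111, 106 and 99.0 in E4H (CPM). The PS19 mice had 197, 186, 199 and 360.4 in PS/E2H, 172, 176, 208 and 249 in PS/E3H and 252, 243, 224 and 172 in PS/E4H (CPM). Every PS19 mouse was above every parental mouse, and the E2H mice were all above the E3H and E4H mice. PS/E3H 2, low for the glucocorticoid genes, was at the level of PS/E3H 1 for Mt1. By the quasi-likelihood F test of edgeR (Benjamini-Hochberg), Mt1 rose 2.29-fold in the E3 line (1.20 ± 0.13, adjusted p = 0.00213, 4 of 4 mice) and 2.13-fold in the E4 line (1.09 ± 0.12, adjusted p = 0.000537, 4 of 4 mice). In the E2 line it gave 0.69 ± 0.23 (adjusted p = 0.269, 4 of 4 mice). Over the 3 lines the rise was 1.99-fold (0.996 ± 0.12, adjusted p = 2.14e-06, 12 of 12 mice).

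Mt2 in parental mice was at 83.4, 79.3 and 64.5 in E2H, 45.8, 39.7 and 40.5 in E3H and 56.0, 54.0 and 47.3 in E4H (CPM). PS19 values were 102, 108, 129 and 192 in PS/E2H, 109, 100.7, 129 and 174 in PS/E3H and 168, 150.4, 128 and 105 in PS/E4H (CPM). As with Mt1, every PS19 mouse was above every parental mouse and the E2H mice were the highest parental mice. Mt2 rose 3.02-fold in the E3 line (1.59 ± 0.17, adjusted p = 0.00205, 4 of 4 mice) and 2.63-fold in the E4 line (1.40 ± 0.14, adjusted p = 0.000363, 4 of 4 mice) by the quasi-likelihood F test of edgeR (Benjamini-Hochberg). In the E2 line the difference was 0.81 ± 0.21 (adjusted p = 0.137, 4 of 4 mice). The fit over the 3 lines gave a 2.41-fold rise (1.27 ± 0.14, adjusted p = 5.67e-07, 12 of 12 mice). Without PS/E2H 4 the E2 line was at 0.40 for Mt1 and 0.57 for Mt2 on the log2 scale.

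Among parental mice, Mt2 was higher in E2H than in E3H by 0.85 ± 0.11 on the log2 scale (adjusted p = 0.024 by the quasi-likelihood F test of edgeR (Benjamini-Hochberg), 3 of 3 E2H mice above all E3H mice), the only member that passed between lines of the same tau status. Mt1 gave 0.75 ± 0.12 in the same comparison (adjusted p = 0.0609). The members that passed numbered 1 for E2H against E3H, 0 for E4H against E3H and 0 for E4H against E2H, where 0.178%, 0.162% and 0.216% of genes passed. At an unadjusted p under 0.05 the members numbered 5, 2 and 4, and the share of all genes at that limit was not counted. Between PS19 groups 0 members passed for PS/E2H against PS/E3H, PS/E4H against PS/E3H and PS/E4H against PS/E2H, where 0.113%, 0.0197% and 0.119% of genes did. In each, 1 member had an unadjusted p under 0.05, again without a share of all genes. Only edgeR was run on these line comparisons.

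Pdk4 (ENSMUSG00000019577, chr6:5483351-5496309, minus strand) encodes a kinase that turns off pyruvate dehydrogenase and so spares glucose. Pdk4 in parental mice was at 11.6, 10.7 and 11.9 in E2H, 12.2, 10.02 and 11.9 in E3H and 16.2, 13.9 and 11.5 in E4H (CPM). Among PS19 mice the values were 13.5, 11.3, 15.2 and 24.3 in PS/E2H, 13.8, 11.3, 17.1 and 14.5 in PS/E3H and 19.1, 19.3, 23.9 and 21.3 in PS/E4H (CPM). The PS/E4H mice and PS/E2H 4 stood above the rest, and in PS/E2H and PS/E3H mouse 2 lay among the parental mice. Pdk4 rose 1.51-fold in the E4 line by the quasi-likelihood F test of edgeR (Benjamini-Hochberg) (0.59 ± 0.13, adjusted p = 0.0156, 4 of 4 mice). That call was lost without E4H 2 (0.61, adjusted p = 0.0654) and with the replicate number as a block (0.59, adjusted p = 0.0942; range over alternatives 0.000333 to 0.0942). The E2 line gave 0.49 ± 0.23 (adjusted p = 0.501, 3 of 4 mice; 0.22, adjusted p = 0.737 without PS/E2H 4), the E3 line 0.30 ± 0.14 (adjusted p = 0.257, 3 of 4 mice), and the 3 lines together 0.47 ± 0.11 (adjusted p = 0.00364, 1.38-fold, 10 of 12 mice), the smallest rise among the members.

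Angptl4 (ENSMUSG00000002289, chr17:33773750-33781830, minus strand) encodes a secreted inhibitor of lipoprotein lipase. Angptl4 in parental mice was at 1.93, 2.32 and 2.14 in E2H, 1.75, 1.92 and 1.42 in E3H and 2.84, 1.66 and 2.17 in E4H (CPM). In PS19 mice it was at 4.86, 3.21, 5.0 and 8.78 in PS/E2H, 3.80, 3.59, 4.06 and 4.05 in PS/E3H and 2.91, 2.88, 5.28 and 3.38 in PS/E4H (CPM). The level was low throughout, yet all 12 PS19 mice were above all 9 parental mice, and PS/E3H 2 was close to the other PS/E3H mice. Angptl4 rose 2.26-fold in the E3 line by the quasi-likelihood F test of edgeR (Benjamini-Hochberg) (1.18 ± 0.18, adjusted p = 0.00952, 4 of 4 mice), a call lost without E3H 1 (1.21, adjusted p = 0.0575, range over alternatives 3.85e-06 to 0.0575). It gave 1.36 ± 0.31 in the E2 line (adjusted p = 0.098, 4 of 4 mice), which passed without PS/E2H 2 (1.54, adjusted p = 0.0473, range 0.000936 to 0.333) and not without PS/E2H 4 (1.03, adjusted p = 0.112), and 0.71 ± 0.27 in the E4 line (adjusted p = 0.108, 4 of 4 mice). With all lines fitted together it rose 2.12-fold (1.08 ± 0.17, adjusted p = 5.03e-05, 12 of 12 mice).

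Plin4 (ENSMUSG00000002831, chr17:56100591-56109803, minus strand) encodes perilipin 4, a protein that coats lipid droplets, and overlaps Hdgfl2 on the plus strand. Plin4 in parental mice was at 10.97, 2.28 and 4.38 in E2H, 2.24, 4.28 and 2.38 in E3H and 6.12, 2.06 and 2.89 in E4H (CPM). The PS19 mice had 39.9, 36.2, 33.3 and 109 in PS/E2H, 28.5, 12.8, 62.2 and 38.8 in PS/E3H and 50.1, 28.4, 66.2 and 24.6 in PS/E4H (CPM). The groups did not overlap: the lowest PS19 mouse, PS/E3H 2, was above the highest parental mouse, E2H 1. Parental mice also differed among themselves, with E2H 1 and E4H 1 above the others of their lines. Group means were 5.88 ± 4.53, 2.97 ± 1.14 and 3.69 ± 2.14 CPM in E2H, E3H and E4H (SD, n = 3 each) and 54.6 ± 36.4, 35.6 ± 20.7 and 42.3 ± 19.5 in PS/E2H, PS/E3H and PS/E4H (SD, n = 4 each).

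Plin4 had the largest fold change of the members in each line. By the quasi-likelihood F test of edgeR (Benjamini-Hochberg) it rose 11.9-fold in the E3 line (3.57 ± 0.49, adjusted p = 0.0048), 11.5-fold in the E4 line (3.53 ± 0.45, adjusted p = 0.00123) and 9.24-fold in the E2 line (3.21 ± 0.60, adjusted p = 0.0475), in 4 of 4 mice each. Over the 3 lines the rise was 10.8-fold (3.44 ± 0.35, adjusted p = 2.64e-07, 12 of 12 mice), and 3.34, adjusted p = 2.03e-07 without both PS/E2H 4 and PS/E3H 2. In the E2 line the log2 fold change ran from 2.17 to 4.03 over the alternatives, and the adjusted p from 0.000729 to 0.221. The call there was lost without E2H 1 (4.03, adjusted p = 0.0519), E2H 2 (2.84, adjusted p = 0.0957), E2H 3 (3.03, adjusted p = 0.221), PS/E2H 1 (3.34, adjusted p = 0.0895), PS/E2H 2 (3.36, adjusted p = 0.0571) or PS/E2H 3 (3.39, adjusted p = 0.069). Without PS/E2H 4 it was kept (2.62, adjusted p = 0.0498). No filter on low counts (adjusted p = 0.0763), limma on log2(FPKM + 1) (2.17, adjusted p = 0.052) and the Xist level as a covariate (adjusted p = 0.0553) also ended it.

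Sult1a1 (ENSMUSG00000030711, chr7:126672865-126676432, minus strand) encodes a sulfotransferase for phenols and steroids. Its exons overlap Sgf29 on the plus strand and share 6.58% of their 50-base windows with Gm6939, so reads could be divided between these genes. Sult1a1 in parental mice was at 13.03, 6.96 and 7.87 in E2H, 6.27, 8.92 and 6.503 in E3H and 10.01, 4.44 and 7.001 in E4H (CPM). PS19 values were 21.1, 19.8, 13.98 and 56.0 in PS/E2H, 15.4, 11.4, 18.8 and 18.1 in PS/E3H and 14.2, 16.6, 33.1 and 17.4 in PS/E4H (CPM). All 4 PS19 mice of each line were above the parental mice of that line, and PS/E2H 4 was far above the rest. Sult1a1, tested by the quasi-likelihood F test of edgeR (Benjamini-Hochberg), rose 2.18-fold in the E3 line (1.12 ± 0.19, adjusted p = 0.0125) and 2.85-fold in the E4 line (1.51 ± 0.33, adjusted p = 0.0143), each in 4 of 4 mice. It gave 1.58 ± 0.45 in the E2 line (adjusted p = 0.195, 4 of 4 mice), and 0.97 without PS/E2H 4. The fit over all lines gave a rise of 2.66-fold (1.41 ± 0.23, adjusted p = 9.23e-05, 12 of 12 mice).

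The Sult1a1 calls in single lines depended on some mice and settings by the quasi-likelihood F test of edgeR (Benjamini-Hochberg). In the E3 line the call was lost without E3H 1 (1.03, adjusted p = 0.0758) or E3H 3 (1.05, adjusted p = 0.0687), with the replicate number as a block (1.05, adjusted p = 0.0578), with the Xist level as a covariate (adjusted p = 0.0583) and with all 21 mice in 1 model (adjusted p = 0.115), where the adjusted p over alternatives ran from 1.81e-07 to 0.115. All mice of that line were male, so the Xist level does not adjust for sex there. In the E4 line the call was lost without E4H 2 (1.27, adjusted p = 0.0663, range 0.00382 to 0.0663). The direction was the same in all of these alternatives.

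The direct repeat that PPAR receptors bind, AGGTCA followed after any 1 base by another AGGTCA (13 of 32851 windows, 0.0396%), was in no window of Pdk4, Plin4 or Sult1a1. AGGTCA alone, of which the repeat holds 2 copies (16.3% of windows), was also in none of them and among the members only in Sgk1 windows 2 and 3.

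Mice of a group with more Fkbp5 also had more of several other members. After group means were removed, log2 CPM of Fkbp5 was correlated with each of the other 9 members over the 21 mice, with 2-sided permutation tests of 100000 shuffles within groups and Benjamini-Hochberg adjustment over the 9 pairs. For Sult1a1 the values were r = 0.818 (permutation p = 0.00041, adjusted p = 0.0031) and rho = 0.757 (permutation p = 0.00217, adjusted p = 0.0103). Plin4 gave r = 0.74 (permutation p = 0.00069, adjusted p = 0.0031) and rho = 0.731 (permutation p = 0.0023, adjusted p = 0.0103), and Pdk4 gave r = 0.831 (permutation p = 0.00378, adjusted p = 0.0113) and rho = 0.694 (permutation p = 0.0063, adjusted p = 0.0189). These 3 pairs were under an adjusted p of 0.05 by Pearson's r and by Spearman's rho. When PS/E2H 4 and PS/E3H 2, the mice farthest from the median of Fkbp5, were left out, r was 0.713 for Sult1a1, 0.639 for Plin4 and 0.647 for Pdk4.

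For the remaining members the relation to Fkbp5 was weaker or rested on those mice. Sgk1 gave r = 0.73 (permutation p = 0.0187, adjusted p = 0.0337) and rho = 0.579 (permutation p = 0.0288, adjusted p = 0.0518), and Angptl4 gave r = 0.664 (permutation p = 0.0162, adjusted p = 0.0337) and rho = 0.536 (permutation p = 0.0262, adjusted p = 0.0518). Without the pair of mice r was 0.485 for Sgk1 and 0.512 for Angptl4. Mt1 (r = 0.731, rho = 0.532), Mt2 (0.64 and 0.535) and Tsc22d3 (0.632 and 0.573) had permutation p values from 0.0339 to 0.0481 and adjusted p values from 0.0509 to 0.0542, and without the pair r was 0.505, 0.358 and 0.339. Zbtb16 had the lowest r and rho over all mice, r = 0.468 (permutation p = 0.12, adjusted p = 0.12) and rho = 0.431 (permutation p = 0.117, adjusted p = 0.117); without the pair its r was 0.357.

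**Figure D4:**
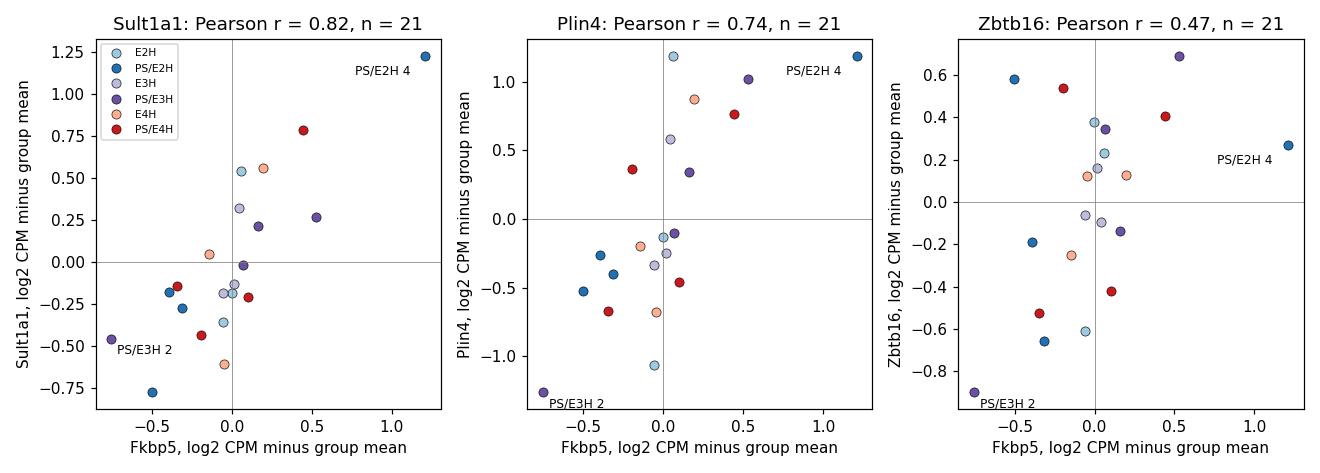
Log2 CPM minus the group mean for Fkbp5 (horizontal axis) against Sult1a1, Plin4 and Zbtb16 (vertical axes), a point per mouse coloured by group. Over 21 mice Pearson's r is 0.818 for Sult1a1, 0.74 for Plin4 and 0.468 for Zbtb16, with PS/E2H 4 at the upper right and PS/E3H 2 at the lower left.

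Outside the members, 15763 genes with a mean of at least 1 CPM were ranked by Pearson's r with the members' mean standardised log2 CPM over the 21 mice, after group means were removed, as a description. The 5 highest were Slc2a1 (r = 0.926, rho = 0.857), which encodes a glucose transporter, Gm44421 (0.9 and 0.84), Kcnn2 (0.889 and 0.838), Net1 (0.879 and 0.726) and Mertk (0.876 and 0.858). Over the 3 lines their log2 fold changes were 0.52 ± 0.08 for Slc2a1 (adjusted p = 4.26e-05, 11 of 12 mice), 0.89 ± 0.18 for Gm44421 (0.000822, 11 of 12 mice), 0.16 ± 0.09 for Kcnn2 (0.216, 7 of 12 mice), 0.58 ± 0.09 for Net1 (3.66e-05, 12 of 12 mice) and 0.68 ± 0.08 for Mertk (1.53e-06, 12 of 12 mice) by the quasi-likelihood F test of edgeR (Benjamini-Hochberg).

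Of 21 further genes known as glucocorticoid targets, 17 were higher and 0 lower over the 3 lines by the quasi-likelihood F test of edgeR (Benjamini-Hochberg), 5 of them by at least 2-fold, and the list's median log2 fold change was 0.66 against -0.01 over all genes. Over all genes in that fit, 11.4% were higher and 2.24% were higher by at least 2-fold. The list, like the others, was chosen with earlier results of these data known and was not tested as a set. At an unadjusted p under 0.05 the genes numbered 18. PS/E2H 4 had a summed CPM of 1807 for the list, against 1058 to 1133 in the other PS/E2H mice, and the list was not fitted without it. By line, 2, 6 and 13 of the 21 were higher in the E2, E3 and E4 lines and 0 were lower, with medians of 0.67, 0.55 and 0.62. Over all genes 0.669%, 3.35% and 8.62% were higher in these lines. Cdkn1a, a cell cycle inhibitor, rose from group means of 15.01, 14.1 and 13.2 CPM in E2H, E3H and E4H to 67.5, 34.9 and 45.8 CPM in the PS19 groups (1.76 ± 0.23 over the lines, adjusted p = 9.5e-06, 12 of 12 mice above all parental mice of their line), with PS/E2H reaching 146.8 CPM in 1 mouse. Hif3a (1.498 ± 0.20, adjusted p = 1.05e-05, 11 of 12 mice), Cebpd (1.40 ± 0.19, adjusted p = 1.55e-05, 11 of 12 mice), Sdc4 (1.02 ± 0.08, adjusted p = 7.84e-09, 12 of 12 mice) and Nfkbia (0.996 ± 0.16, adjusted p = 0.000123, 11 of 12 mice) also rose over the lines. Lcn2, an acute phase protein gene, gave 5.29 ± 1.05 (adjusted p = 0.000835, 10 of 12 mice), and its spread was wide, from 0.0665 to 6.61 CPM in parental and 0.622 to 98.9 CPM in PS19 mice.

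Not every target of the receptor followed the members. Per1 gave -0.14 ± 0.13 over the lines (adjusted p = 0.498, 5 of 12 mice) and Dusp1 0.04 ± 0.22 (adjusted p = 0.93, 5 of 12 mice) by the quasi-likelihood F test of edgeR (Benjamini-Hochberg); both were chosen for mention after their values were seen. The Dusp1 estimate differed in sign by line, with -0.60 ± 0.25 in the E2 line (adjusted p = 0.422) and 0.65 ± 0.31 in the E4 line (adjusted p = 0.186), neither past the test. Of 14 clock genes, 1 was higher and 2 lower over the lines (4 at an unadjusted p under 0.05, median -0.02), close to the shares over all genes, 11.4% higher and 9.63% lower. These were Bhlhe41 (0.27 ± 0.08, adjusted p = 0.0152, 8 of 12 mice), Npas2 (-0.28 ± 0.08, adjusted p = 0.0189, 9 of 12 mice) and Per3 (-0.27 ± 0.09, adjusted p = 0.0445, 7 of 12 mice).

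Genes of the receptors, their chaperones and cofactors and the steroid enzymes did not rise as the members did. Of 15 such genes 14 were tested, and 1 was higher and 5 lower over the 3 lines by the quasi-likelihood F test of edgeR (Benjamini-Hochberg), with a median of -0.13, where 9.63% of all genes were lower; Hsd11b2 had too few counts. The mineralocorticoid receptor gene Nr3c2 fell (-0.39 ± 0.04, adjusted p = 1.3e-06, 12 of 12 mice), from group means of 47.8, 60.1 and 56.7 CPM in E2H, E3H and E4H to 38.8, 44.8 and 41.4 CPM, and every PS19 mouse was under every parental mouse of its line. The glucocorticoid receptor gene Nr3c1, chosen for mention after its values were seen, gave -0.13 ± 0.05 (adjusted p = 0.0684, 7 of 12 mice). Ptges3 (-0.18 ± 0.05, adjusted p = 0.00527, 10 of 12 mice), Crhr1 (-0.30 ± 0.08, adjusted p = 0.00707, 9 of 12 mice) and Ncoa2 (-0.20 ± 0.06, adjusted p = 0.014, 10 of 12 mice) also fell. In single lines 0 were higher, and 0, 1 and 5 were lower in the E2, E3 and E4 lines, where 0.0825%, 2.02% and 6.98% of all genes were lower, with 3, 4 and 7 of the list at an unadjusted p under 0.05. Neuron markers were also lower in part (5 of 10 over the lines, median -0.15), and their part in the fall of Nr3c2 and the others was not tested.

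Of 26 further genes of fasting, fatty acid oxidation and ketone metabolism, 10 were higher and 0 lower over the lines by the quasi-likelihood F test of edgeR (Benjamini-Hochberg), 1 by at least 2-fold, with a median of 0.13. That 1 was Ucp2, a mitochondrial carrier gene also found in microglia (1.19 ± 0.09, adjusted p = 5.08e-09, 12 of 12 mice). Over all genes, 11.4% were higher and 2.24% were higher by at least 2-fold. Txnip (0.79 ± 0.10, adjusted p = 5.48e-06, 12 of 12 mice) and Cpt1a (0.46 ± 0.07, adjusted p = 0.0001, 11 of 12 mice) rose by less, beside 3.44 ± 0.35 for Plin4. In the E2, E3 and E4 lines 1, 5 and 7 were higher and 0 lower, where 0.669%, 3.35% and 8.62% of all genes were higher. Of 8 other genes of metal handling and oxidative stress, 4 were higher and 0 lower over the lines (median 0.17), among them Hmox1 (0.95 ± 0.14, adjusted p = 2.44e-05, 12 of 12 mice) and the brain metallothionein Mt3 (0.45 ± 0.12, adjusted p = 0.00705, 6 of 12 mice). In single lines the higher genes of that list numbered 0, 2 and 3, with 1, 2 and 5 at an unadjusted p under 0.05.

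**Figure D5:**
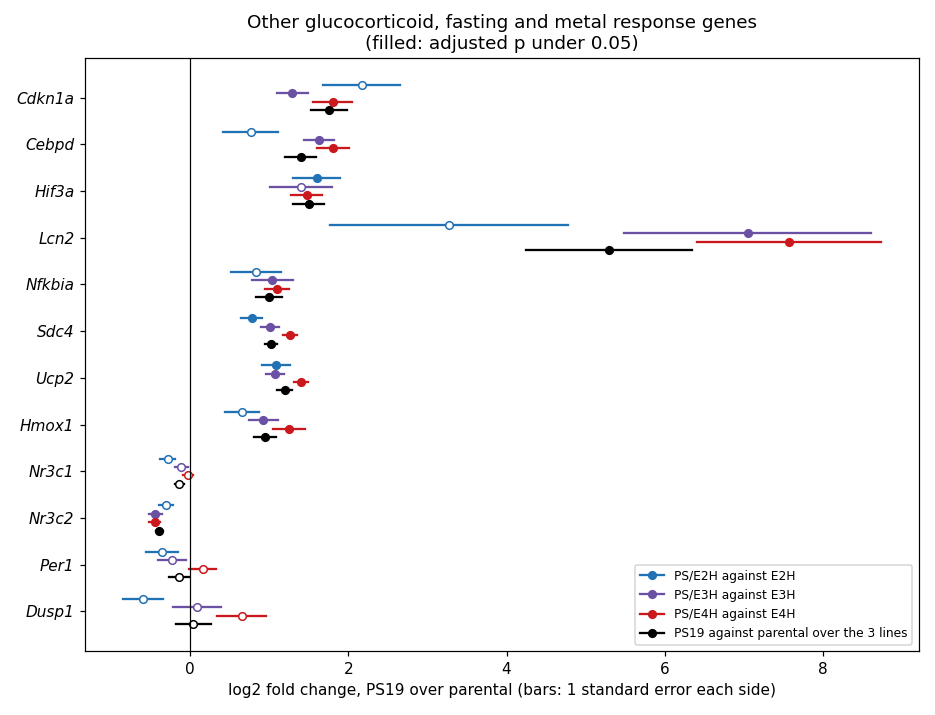
Log2 fold change in PS19 against parental mice (horizontal axis) of 12 genes outside the members (vertical axis). Points with bars of 1 SE stand for each APOE line and for the 3 lines fitted together. Filled points passed an adjusted p under 0.05. Over the lines Cdkn1a is at 1.76 and Lcn2 at 5.29, while Nr3c1, Per1 and Dusp1, shown after their values were seen, are at -0.13, -0.14 and 0.04.

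Many markers of glia were also higher in PS19 mice, and in bulk samples more cells of a type and more RNA per cell cannot be told apart. Of all genes, 11.4% were higher over the lines, and 0.669%, 3.35% and 8.62% were higher in the E2, E3 and E4 lines. All 10 astrocyte markers were higher over the lines by the quasi-likelihood F test of edgeR (Benjamini-Hochberg) (2 by at least 2-fold, median 0.43; 2, 9 and 9 in the E2, E3 and E4 lines). Their summed CPM was 4033, 4536 and 4291 in E2H, 4077, 4023 and 4310 in E3H and 4025, 3947 and 4216 in E4H. It was 6184, 5636, 6800 and 6278 in PS/E2H, 5675, 6898, 6599 and 7351 in PS/E3H and 7900, 6956, 7580 and 6699 in PS/E4H. Every PS19 mouse was above every parental mouse, PS/E3H 2 with its low Fkbp5 and Sgk1 included, and PS/E2H 4 was within the range of the other PS/E2H mice. Slc1a2 was the most abundant marker, none was at 0, and Gfap rose the most (2.68 ± 0.14, adjusted p = 2.26e-11, 12 of 12 mice).

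Of the 10 microglia markers 9 were higher over the lines, 5 of them by at least 2-fold, with a median of 0.91; 4, 8 and 9 were higher in the E2, E3 and E4 lines by the quasi-likelihood F test of edgeR (Benjamini-Hochberg). Their summed CPM was 424, 534 and 424 in E2H, 449, 414 and 448 in E3H and 414, 408 and 427 in E4H. It was 839, 823, 904 and 594 in PS/E2H, 662, 884, 889 and 1006 in PS/E3H and 1159, 937, 926 and 1035 in PS/E4H. PS/E2H 4, the highest mouse for 9 members, was the lowest PS19 mouse here. No microglia marker was at 0 in a whole group.

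Of the 10 oligodendrocyte markers 6 were higher and 0 lower over the lines by the quasi-likelihood F test of edgeR (Benjamini-Hochberg) (median 0.26; 0, 8 and 8 higher in the E2, E3 and E4 lines). Their summed CPM was 7103, 7420 and 6845 in E2H, 5151, 5657 and 5240 in E3H and 6260, 5608 and 6716 in E4H. It was 7834, 7592, 7061 and 6379 in PS/E2H, 6891, 7334, 7164 and 7160 in PS/E3H and 9219, 9740, 7826 and 7713 in PS/E4H. PS/E2H 4 was under all E2H mice, and every PS/E3H and PS/E4H mouse was above its parental line. Mbp was the most abundant marker and none was at 0. The part of astrocyte, microglia and oligodendrocyte markers in the members' result was not tested.

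Among the other cell types, 2 of 10 neuron markers were higher and 5 lower over the lines by the quasi-likelihood F test of edgeR (Benjamini-Hochberg) (median -0.15), with sums of 7431 to 8026 CPM in parental and 6563 to 7935 in PS19 mice, and Snap25 the most abundant. Endothelial markers gave 4 higher and 1 lower of 10 (median 0.07; 201.4 to 264.7 CPM in parental and 216.5 to 308.1 in PS19 mice), and Flt1, Slco1a4 or Ly6c1 was the most abundant by group. Mural cell and fibroblast markers gave 4 higher and 0 lower of 10 (median 0.18; 161.9 to 266.1 and 208.2 to 336.4 CPM; Rgs5 the most abundant). Choroid plexus markers gave 4 higher and 0 lower of 10 (median 0.42; 459.7 to 790.8 and 438.9 to 1250 CPM; Ttr the most abundant). No marker of these lists was at 0 in a whole group. Of all genes, 11.4% were higher and 9.63% lower over the lines.

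For blood, 0 of 5 hemoglobin and red cell genes passed in any line or over the lines by the quasi-likelihood F test of edgeR (Benjamini-Hochberg), while 4, 0 and 0 had an unadjusted p under 0.05 in the E2, E3 and E4 lines and 5 over the lines (median -0.97). Their sums, mostly Hbb-bs, averaged 436.9, 253.8 and 207.0 CPM in E2H, E3H and E4H and 137.1, 154.4 and 165.0 CPM in PS/E2H, PS/E3H and PS/E4H, with PS/E2H 4 the lowest at 28.8 CPM. E2H 1 (779.2 CPM, against 334.7 and 196.7 in the other E2H mice) and PS/E3H 4 (381.5, against at most 92.89 in its group) raised their group means. Of 7 pituitary hormone genes 5 were tested over the lines, and Tshb was higher and Prl lower; their sums were 2.04 to 11.45 CPM in parental and 2.19 to 5.515 CPM in PS19 mice, and Prl and Gh were at 0 in every PS/E2H and PS/E3H mouse. Of the 6 forebrain markers 4 were lower over the lines (median -0.37), and of the 6 hindbrain markers 4 were tested and 0 passed, with 2 at an unadjusted p under 0.05, although Hoxc10 was lower in the E4 line (-4.12 ± 1.10, adjusted p = 0.032). The part of these differences in the members' result was not tested. For these lists too, the shares over all genes in the fit over the lines were 11.4% higher and 9.63% lower.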

How the data were processed

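The authors made stranded poly(A) libraries from the forebrain of each of 21 mice, and the processing notes name cutadapt for trimming, HISAT2 for alignment to GRCm38.p5 and StringTie for assembly and quantification. They deposited raw counts, whole numbers per gene, for 55401 genes, and FPKM values, already scaled for length and library size by the authors, for 37538 genes. Versions of these tools, how the counts were taken and whether counting used strand are not given in the sources used here. Replicate numbers and groups come from the sample titles, and 0 columns were left unmapped. GENCODE M21 names 55141 of the genes.

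The deposited counts were fitted with edgeR 4.0.16 in R 4.3.3 (TMM, filterByExpr with a minimum count of 10 and a minimum total of 15, quasi-likelihood F test), each pair of groups on its own mice, 3 PS19 effects over lines as interactions on 14 mice, and 1 additive model of line and PS19 genotype on 21 mice. Adjusted p values are Benjamini-Hochberg over all genes tested, at 0.05, with a fold change limit of 2 where stated, and cover the spread between mice. Shares of all genes past a test were counted at the adjusted p only. Counts of listed genes at an unadjusted p therefore have no such share beside them. The alternatives were DESeq2 1.42.0, RLE or library size scaling, no filter, limma 3.58.1 on log2(FPKM + 0.1) or log2(FPKM + 1), a replicate block, the Xist level as a covariate, all 21 mice in 1 model and each mouse left out in turn. They were run on the 4 PS19 against parental fits, except that all 21 mice in 1 model was run only for the 3 single lines. The statistical steps were tested on simulated data. Other steps used Python 3.11.15, NumPy 2.4.6, SciPy 1.17.1, pandas 2.3.3 and matplotlib 3.10.9.

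The same replicate numbers occur in PS19 and parental groups. Correlations of same-numbered mice, as deviations from their group means over 5000 genes, were 0.268, 0.253 and 0.32 in the E3 line. All were over 0.1, so its numbers were taken to pair the mice. The pairing comes from the data alone, since what the number marks is not stated, and replicate 4 has no parental partner. Within groups, 27 pairs of mice differed by a chi-square of 19.2 to 79.9 per gene, so none was a repeat of another library. Mitochondrial genes took 7.25% to 10.9% of the counts and the 10 highest genes 6.95% to 10.3%.

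The 10 members and the 16 other lists (corticosteroid receptor genes, glucocorticoid targets, fasting, metal, clock, astrocyte, microglia, endothelial, mural and fibroblast, oligodendrocyte, neuron, choroid plexus, blood, pituitary, forebrain and hindbrain) were chosen with earlier results of these data known, and no list was tested as a set. All members are named. Of every other list, the genes named are those past an adjusted p of 0.05 and 2-fold in a line, or else from the 4 with the smallest p over the lines, and not all are printed. Beside these are named the most abundant genes of marker lists, genes at 0 or with too few counts, and genes marked in the text as picked with their values known. Motif windows are those of RefSeq for GRCm38.p6.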

Additional observations from a re-analysis of the deposited data

Results flagged for a closer look

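In each PS19 group of 4 mice, the highest and lowest CPM of each member were compared with the nearest other mouse, and a mouse was listed where that gap, divided by the range of the group, was above Dixon's critical value for 4 values. Of the 30 sets of 4 mice (10 members in 3 groups), 6 held such a mouse, and chance gives about 1 in 20 for a single set; the sets share mice and the members are correlated, so the 6 are not independent. PS/E2H 4 accounts for 4 of them: Fkbp5 at 187.8 CPM (gap over range 0.939), Mt1 at 360.4 CPM (0.928), Plin4 at 109.1 CPM (0.913) and Sult1a1 at 56.05 CPM (0.83). PS/E3H 2 was far under its group for Sgk1, at 57.94 CPM (0.913). PS/E4H 3 was far above its group for Sult1a1, at 33.08 CPM (0.832).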

How the results depend on the processing

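All 10 members kept a positive log2 fold change under every alternative in each line and over the 3 lines. Over the 3 lines all 10 passed the adjusted p under each of the 30 alternatives, and the members that also rose at least 2-fold numbered 4 to 7 when single mice were left out. The alternative without both PS/E2H 4 and PS/E3H 2 was chosen after seeing the data. For the log2 fold changes of single members, the call under an alternative was the same in 136 cases in the E2 line, gained in 15 and lost in 9; these numbers were 140, 4 and 16 in the E3 line, 154, 0 and 6 in the E4 line, and 300, 0 and 0 over the lines.

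In the E2 line, 1 member passed with and without the 2-fold limit. With the 2-fold limit the count was 3 under DESeq2, 0 with no filter on low counts, 0 under limma on log2(FPKM + 1), 5 with all 21 mice in 1 model and 0 to 2 with single mice left out. Without that limit it was 4 under DESeq2, 0 with no filter, 0 under limma on log2(FPKM + 1), 6 with all 21 mice and 0 to 2 with single mice left out. In the E3 line the count of 6 with the limit was 3 under limma on log2(FPKM + 1) and 3 to 6 with single mice left out; at the adjusted p alone it was 3 to 9. In the E4 line the count of 5 was 4 to 5 and that of 8 was 5 to 8 with single mice left out. The cause of these changes was not tested.

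With the replicate block, Sgk1 and Sult1a1 lost their calls in the E3 line, whose numbers were taken to pair the mice, and no other call changed there. In the E2 line same-numbered mice correlated at -0.036, 0.513 and 0.514, with 2 of 3 best matched to their own number, and in the E4 line at -0.062, -0.301 and -0.353, with 0 of 3, so the numbers were not taken to pair them. The replicate block gave counts of 3 with the 2-fold limit and 4 without it in the E2 line, 5 and 7 in the E4 line, and 4 and 10 over the lines.

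Over all genes tested, the calls at the adjusted p numbered 155 in the E2 line (31 to 635 over the alternatives), 1141 in the E3 line (113 to 2584), 3252 in the E4 line (1189 to 4396) and 4806 over the lines (3761 to 5699). In the E3 line 712 of the 1141 were higher, and 388 of 774 under limma on log2(FPKM + 0.1). Interactions and comparisons between lines were fitted with edgeR alone. The p values do not separate tau genotype, genetic background and paralysis, and age and sex by mouse were not given.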
